A study of Bos taurus with 18 samples.

Results

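The response of bovine endometrial stromal cells (bESCs) to recombinant bovine CAPG (rbCAPG) was examined in 6 RNA sequencing libraries, the 3 bESC libraries with rbCAPG and the 3 bESC libraries with vehicle control (VC, PBS), out of 18 libraries in all. The libraries were chosen by their labelled cell type and treatment, and replicate numbers 1 to 3 were used as a block. The series asked how primary bovine endometrium, held in a microfluidic endometrium-on-a-chip device, responds to the conceptus-derived proteins CAPG and PDI. Epithelial cells (bEECs) and bESCs were collected from each device after 24 h with VC, rbCAPG or recombinant bovine PDI (rbPDI), each protein at 1 µg/mL.

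The cells came from 3 uterine tracts of slaughtered cattle whose ovaries marked the late-luteal stage, and each device held the bEECs and bESCs of 1 animal. Same-numbered libraries are therefore taken to share an animal, which the methods do not state outright for devices of different treatments. Animals are called 1, 2 and 3 after the replicate numbers. All 6 libraries are from primary cells, and no interferon tau, hormone or conceptus is named in their labels. Protein or PBS flowed past the bEECs, while a porous membrane separated this flow from the bESCs, which lay in a static chamber. The bESC libraries therefore record cells that shared a device with treated bEECs, and direct exposure of bESCs and signals from the bEECs cannot be told apart in this design.

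CAPG is a protein of the gelsolin family that caps actin filaments, and the elongating conceptus releases it into the uterine lumen. Endometrial stromal cells are fibroblast-like cells that lie under the epithelium, make prostaglandins and cytokines, and respond to inflammatory signals through NF-kB. NF-kB is a family of transcription factors held in the cytoplasm by inhibitor proteins. When a kinase cascade removes the inhibitor, NF-kB enters the nucleus and induces chemokines, cytokines, the enzyme PTGS2 and its own inhibitors, which close a negative feedback loop.

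A library's total was 20488416 to 44253149 estimated counts among the 6 libraries, and 16698 to 18256 genes had more than 3 counts. The shallowest of the 6 was VC of animal 1. The bESC libraries were checked against marker genes. All markers were taken from the paper's lists of genes changed by rbCAPG, so their choice was not independent of the treatment. The 6 stromal markers summed to 245 to 264 CPM (counts scaled to a common library total) in VC bESCs and 253 to 431 CPM with rbCAPG, against 10.2 to 19.6 CPM in VC bEECs, and none of them passed the test with rbCAPG. The 8 epithelial markers summed to 14.9 to 19.2 CPM in VC bESCs and 15.3 to 27.9 CPM with rbCAPG, against 819 to 1651 CPM in VC bEECs. None of the 8 was called by edgeR, and DESeq2 with the block called 1 higher and 1 lower. At an unadjusted p under 0.05 by edgeR, 3 were higher and 1 lower, beside 5.59% of all tested genes in either direction. Among the 8, MUC1 was at 0.0881, 0.124 and 0.321 CPM in VC bESCs and 0.410, 0.612 and 0.369 CPM with rbCAPG. AGR2 was at or near 0 in all 6 libraries, and CFTR was higher in bESCs than in bEECs, against its place in the list. OCLN was higher with rbCAPG in each animal and RBM47 had a negative log2 fold change, with values below. A broader set of 101 genes with over 50 CPM in bEECs and over 100 times their bESC level summed to 127, 35.4 and 60.7 CPM in VC bESCs of animals 1, 2 and 3 and to 160, 44.3 and 61.9 CPM with rbCAPG, against 28926 to 62906 CPM in bEEC libraries of these groups. The ratio between the cell types was part of the choice of the 101 genes. Their low bESC sums beside bEECs follow from that choice and are not a check of these libraries. In bulk libraries, fewer cells of a type and less RNA per cell cannot be told apart.

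With rbCAPG, 86 of 17931 tested genes changed in bESCs (0.480% of all tested genes). Of these, 84 were higher and 2 were lower. A gene was called where edgeR's quasi-likelihood test gave a Benjamini-Hochberg adjusted p under 0.05 and the absolute log2 fold change was above 1, with the animal as a block. Among the genes that rose were chemokines, cytokines, feedback regulators of NF-kB and enzymes of the prostaglandin pathway. Of the 86, 43 had a symbol in the gene lists supplied with the paper, 42 higher and 1 lower, and 31 were in neither of its lists for rbCAPG. The median log2 fold change of the 84 higher genes was 2.03, with a range from 1.01 to 9.82, beside -0.01 for all tested genes. All 84 were higher with rbCAPG in each of the 3 animals, as were 9.86% of all tested genes. The 3 rbCAPG libraries lay above the 3 VC libraries for 61 of the 84, as they did for 3.02% of all tested genes. The calls used a spread estimated over both cell types. A fit to the 6 libraries alone called 0 genes, with 511 at an unadjusted p under 0.05 beside 1002 in the fit to all 18 libraries, and a fit to the 9 bESC libraries called 19. The edgeR fit without the animal as a block called 17 genes, all of them among the 86. DESeq2 with the block called 188, including all 86, and without the block 71, of which 52 were among the 86.

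The study's own list of genes changed by rbCAPG in bESCs holds 66 identifiers, all of them tested, and 50 were called, 49 higher and 1 lower. That list was made from these same libraries, so it is not independent evidence of their direction, and the same holds for the functional groups below, whose members were drawn from the study's lists. Their counts and medians were raised by this selection and are a description only. Of all tested genes, which were not selected in this way, 0.468% were called higher, and the median was -0.01.

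The study's lists name 5 CXC chemokines that attract neutrophils through the receptor CXCR2. All 5 were higher with rbCAPG in every animal, and 3 of the 5 were called. Members of this family without a symbol in those lists were not examined. The group's median log2 fold change was 3.67. CXCL2 was at 62.4, 39.02 and 18.5 CPM with VC and 672, 1137 and 1067 CPM with rbCAPG in animals 1, 2 and 3. Each rbCAPG library stood far above each VC library, and animal 3, with the lowest VC level, had the largest ratio. The log2 fold change of CXCL2 was 4.66 ± 0.54 (SE), with an adjusted p of 0.00129 by edgeR. GRO1, a close relative of CXCL2, went from 38.5, 39.9 and 12.2 CPM to 259, 408 and 714 CPM, a log2 fold change of 3.83 ± 0.57 (SE) with an edgeR adjusted p of 0.00647. CXCL3, the third of these related ligands, went from 52.9, 43.99 and 15.2 CPM to 279, 207 and 615 CPM, a log2 fold change of 3.20 ± 0.56 (SE) with an edgeR adjusted p of 0.0213. The groups did not overlap for either gene, and the highest level of both was in rbCAPG of animal 3.

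CXCL8 and CXCL5 missed the threshold although their groups did not overlap. CXCL8, also known as interleukin-8 and the best known neutrophil attractant, was at 93.9, 114 and 38.5 CPM with VC and 707, 717 and 2906 CPM with rbCAPG, a log2 fold change of 3.67 ± 0.76 (SE) with an edgeR adjusted p of 0.0516. CXCL5 was at 3665, 8609 and 1946 CPM with VC and 18532, 21864 and 19389 CPM with rbCAPG, a log2 fold change of 2.24 ± 0.49 (SE) with an edgeR adjusted p of 0.0767. The rbCAPG libraries were close to each other for CXCL5, while the VC libraries were spread, with animal 2 highest and animal 3 lowest. DESeq2 with the block called all 5 members. In the reference gene table of another bovine assembly, all 5 genes lie on 1 chromosome, with CXCL3 and GRO1 next to each other. Reads that fit several genes were divided among them by the authors, and every library's value for CXCL3 and GRO1 held fractions, so the split of reads between these near-identical genes is uncertain.

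**Figure D1:**
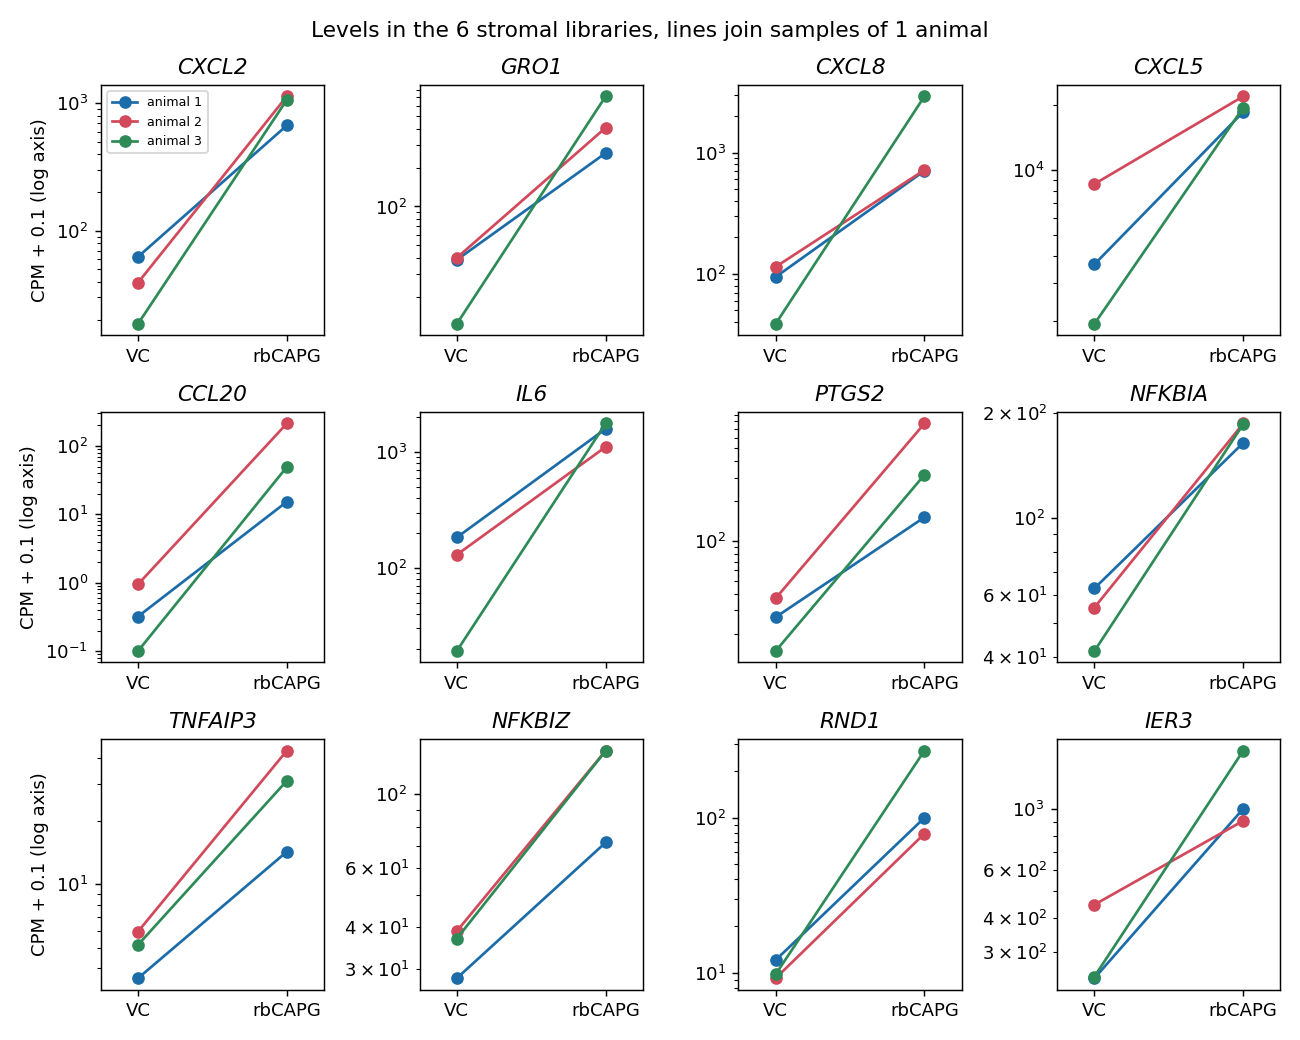
Levels of 12 genes in the 6 bESC libraries, as CPM + 0.1 on a log axis whose range differs between panels. Points are libraries and each line joins the VC and rbCAPG samples of 1 animal. All 36 lines go up, and CXCL5 and CXCL8 are the 2 genes shown that were not called.

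The chemokines that act on lymphocytes and monocytes showed the same direction, with 3 of 5 members called higher and a median log2 fold change of 3.48. CCL20, which attracts lymphocytes and dendritic cells that carry CCR6, was at 0.220, 0.846 and 0 CPM with VC and 15.2, 214 and 49.4 CPM with rbCAPG. It was nearly absent from every VC library and present in every rbCAPG library, most strongly in animal 2. The log2 fold change of CCL20 was 8.01 ± 0.86 (SE), with an edgeR adjusted p of 0.00129. CCL5, a ligand that recruits T cells and monocytes, went from 9.51, 17.2 and 1.26 CPM to 67.3, 124 and 56.9 CPM, a log2 fold change of 3.48 ± 0.55 (SE) with an edgeR adjusted p of 0.0106. CX3CL1, a chemokine anchored in the cell membrane, stayed under 1 CPM in all 6 libraries and rested on 4 counts in VC and 86 with rbCAPG, a ratio of 18.9 with an exact counting interval of 7.13 to 71.1. It was called, with an edgeR adjusted p of 0.0216. CCRL2, an atypical receptor that binds chemerin, and CXCL16, a ligand of CXCR6, were not called, with log2 fold changes of 2.55 and 1.41 and edgeR adjusted p-values of 0.0535 and 0.106.

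Of 8 cytokines and growth factors, 3 were called higher and none lower. The group's median log2 fold change was 1.96. IL6, the acute-phase cytokine, was at 183, 129 and 18.98 CPM with VC and 1583, 1106 and 1762 CPM with rbCAPG. The VC level of animal 3 was far under that of animals 1 and 2, while the rbCAPG levels were closer together. The log2 fold change of IL6 was 3.95 ± 0.70 (SE), with an edgeR adjusted p of 0.0221. CSF3, the growth factor of neutrophils, had no count in any VC library and reached 0.355, 9.20 and 0.323 CPM in the rbCAPG libraries, which was at least 38.2-fold higher with 3 counts per VC library as the floor. Most of its reads came from animal 2, and its fitted log2 fold change of 9.82, the top of the range given above, depends on the prior count. The edgeR adjusted p of CSF3 was 0.00129. TNFSF15, a ligand of the TNF family, went from 6.17, 4.17 and 7.45 CPM to 62.2, 157 and 60.3 CPM, a log2 fold change of 3.94 ± 0.57 (SE) with an edgeR adjusted p of 0.00607. The other 5 were not called. IL37, an anti-inflammatory member of the interleukin-1 family, was at 0.176, 0.495 and 0 CPM with VC and 2.30, 1.74 and 1.73 CPM with rbCAPG, with an edgeR adjusted p of 0.207. IL1RN, the antagonist of the interleukin-1 receptor, had a log2 fold change of -0.53, and EDN1, the vasoconstrictor endothelin-1, one of -0.64.

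Among 13 cytokine receptors and immune surface proteins, 4 were called higher, all 13 had a positive log2 fold change, and the median was 0.99. TNFRSF11B, also known as osteoprotegerin and a soluble decoy for the ligand RANKL, was at 0.0881, 0.557 and 0 CPM with VC and 2.43, 5.06 and 0.623 CPM with rbCAPG, and animal 2 was highest under both treatments. Its edgeR adjusted p was 0.0293. CD40, a costimulatory receptor that activates NF-kB, went from 44.2, 35.8 and 21.6 CPM to 117, 67.8 and 64.3 CPM, a log2 fold change of 1.3 ± 0.21 (SE) with an edgeR adjusted p of 0.0124. GPR84, a receptor for medium-chain fatty acids, had a log2 fold change of 4.70 ± 0.60 (SE), and its edgeR adjusted p was 0.00647. SLAMF8, a surface protein best known from myeloid cells, was at 1.41, 3.14 and 1.48 CPM with VC and 8.61, 8.87 and 8.42 CPM with rbCAPG, where the animals were alike. Its edgeR adjusted p was 0.00339. CD200, a surface ligand that restrains myeloid cells, had an edgeR adjusted p of 0.0417 but a log2 fold change of 0.92, under the limit. OLR1, the receptor for oxidised LDL, had a log2 fold change of 1.86 and an edgeR adjusted p of 0.0767.

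SLAMF8 is also 1 of 6 leukocyte markers, and the only one of them called by edgeR, while DESeq2 with the block called 2. All 6 had a positive log2 fold change with rbCAPG, with a median of 1.3 beside -0.01 for all tested genes. At an unadjusted p under 0.05 in the edgeR fit 4 of the 6 were higher, beside 5.59% of all tested genes in either direction. For 4 the rbCAPG libraries all lay above the VC libraries, as they did for 3.02% of all tested genes. The 6 markers summed to 10.4, 27.7 and 7.26 CPM in VC bESCs and 26.9, 36.1 and 19.2 CPM with rbCAPG, so the sum was higher with rbCAPG in each animal while the groups overlapped in the sum. AIF1, a macrophage marker, had 0 counts in VC and at most 0.0820 CPM with rbCAPG. The 3 endothelial markers summed to 252, 340 and 259 CPM with VC and 503, 449 and 735 CPM with rbCAPG. SELP was at 116, 156 and 214 CPM with VC and 392, 316 and 646 CPM with rbCAPG, with an edgeR adjusted p of 0.569, while TEK stayed under 0.5 CPM in all 6 libraries. ESM1, the remaining marker, was lower with rbCAPG in animals 1 and 2 and higher in animal 3. Of the 3 markers, 2 had a positive log2 fold change, and the lowest was -0.15. The part of other cell types in the results was not tested.

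The genes that restrain NF-kB or break down inflammatory RNA rose together, with 7 of 7 members called and a median log2 fold change of 1.84. In no member did the 2 groups overlap. TNFAIP3, the ubiquitin-editing enzyme A20 that switches off signalling to NF-kB, was at 3.48, 5.86 and 5.06 CPM with VC and 14.2, 43.04 and 30.9 CPM with rbCAPG, a log2 fold change of 2.53 ± 0.25 (SE) with an edgeR adjusted p of 0.00129. NFKBIZ went from 27.97, 38.7 and 36.8 CPM to 71.6, 135 and 135 CPM, a log2 fold change of 1.67 ± 0.18 (SE) with an edgeR adjusted p of 0.00129. NFKBIZ is a nuclear protein that is needed to induce a subset of NF-kB targets, IL6 among them, so it is not only an inhibitor. ZC3H12A, the RNase Regnase-1 that degrades transcripts such as that of IL6, went from 7.84, 9.59 and 8.74 CPM to 17.9, 42.2 and 40.3 CPM, with an edgeR adjusted p of 0.00178. TNIP1, a partner of A20, went from 59.1, 86.7 and 74.5 CPM to 259, 386 and 169 CPM, with an edgeR adjusted p of 0.00233. The smallest rbCAPG level of TNIP1 was in animal 3, where CXCL3, GRO1 and CXCL8 were highest. NFKBIA, the inhibitor IkB-alpha itself, went from 62.7, 55.3 and 41.4 CPM to 164, 187 and 186 CPM, a log2 fold change of 1.77 ± 0.28 (SE) with an edgeR adjusted p of 0.0106. The remaining members were BIRC3, a ubiquitin ligase that also passes signals on to NF-kB, and the early-response gene IER3, with log2 fold changes of 1.82 and 1.93. Without the block, 6 of the 7 were called.

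Of the NF-kB subunits and their kinase, 1 of 3 was called. MAP3K8, the kinase bound by the precursor of the NFKB1 subunit, was at 2.95, 2.33 and 2.34 CPM with VC and 5.69, 6.94 and 8.81 CPM with rbCAPG, a log2 fold change of 1.48 ± 0.29 (SE) with an edgeR adjusted p of 0.0359. The subunit genes NFKB2 and NFKB1 had log2 fold changes of 1.26 and 0.69, with edgeR adjusted p-values of 0.0749 and 0.432. Both were higher with rbCAPG in every library, but the margin over VC was small.

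Enzymes that make prostaglandins, related lipids and nitric oxide were called in 4 of 5 cases, with a median log2 fold change of 1.83. PTGS2, the inducible cyclooxygenase that begins prostaglandin synthesis from arachidonic acid, was at 26.5, 36.8 and 14.7 CPM with VC and 151, 770.1 and 316 CPM with rbCAPG. Every rbCAPG library stood well above every VC library, and animal 2 was highest under both treatments. The log2 fold change of PTGS2 was 3.75 ± 0.43 (SE), with an edgeR adjusted p of 0.00129. PLA2G4A, the phospholipase that frees arachidonic acid from membranes, went from 61.9, 61.1 and 24.01 CPM to 166, 325 and 75.9 CPM, a log2 fold change of 1.83 ± 0.27 (SE) with an edgeR adjusted p of 0.00647. NOS2, the inducible nitric oxide synthase, was at 0, 0.351 and 0 CPM in VC libraries and 2.30, 30.1 and 1.20 CPM in rbCAPG libraries, and its edgeR adjusted p was 0.00552. Animal 2 supplied most of the NOS2 reads under both treatments. ALOX12, a lipoxygenase, had a log2 fold change of 1.21 ± 0.24 (SE) with an edgeR adjusted p of 0.0436, and its groups overlapped, with animal 1 lowest under both treatments. PLA2R1, a receptor for secreted phospholipases, was not called, with a log2 fold change of 0.36.

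**Figure D2:**
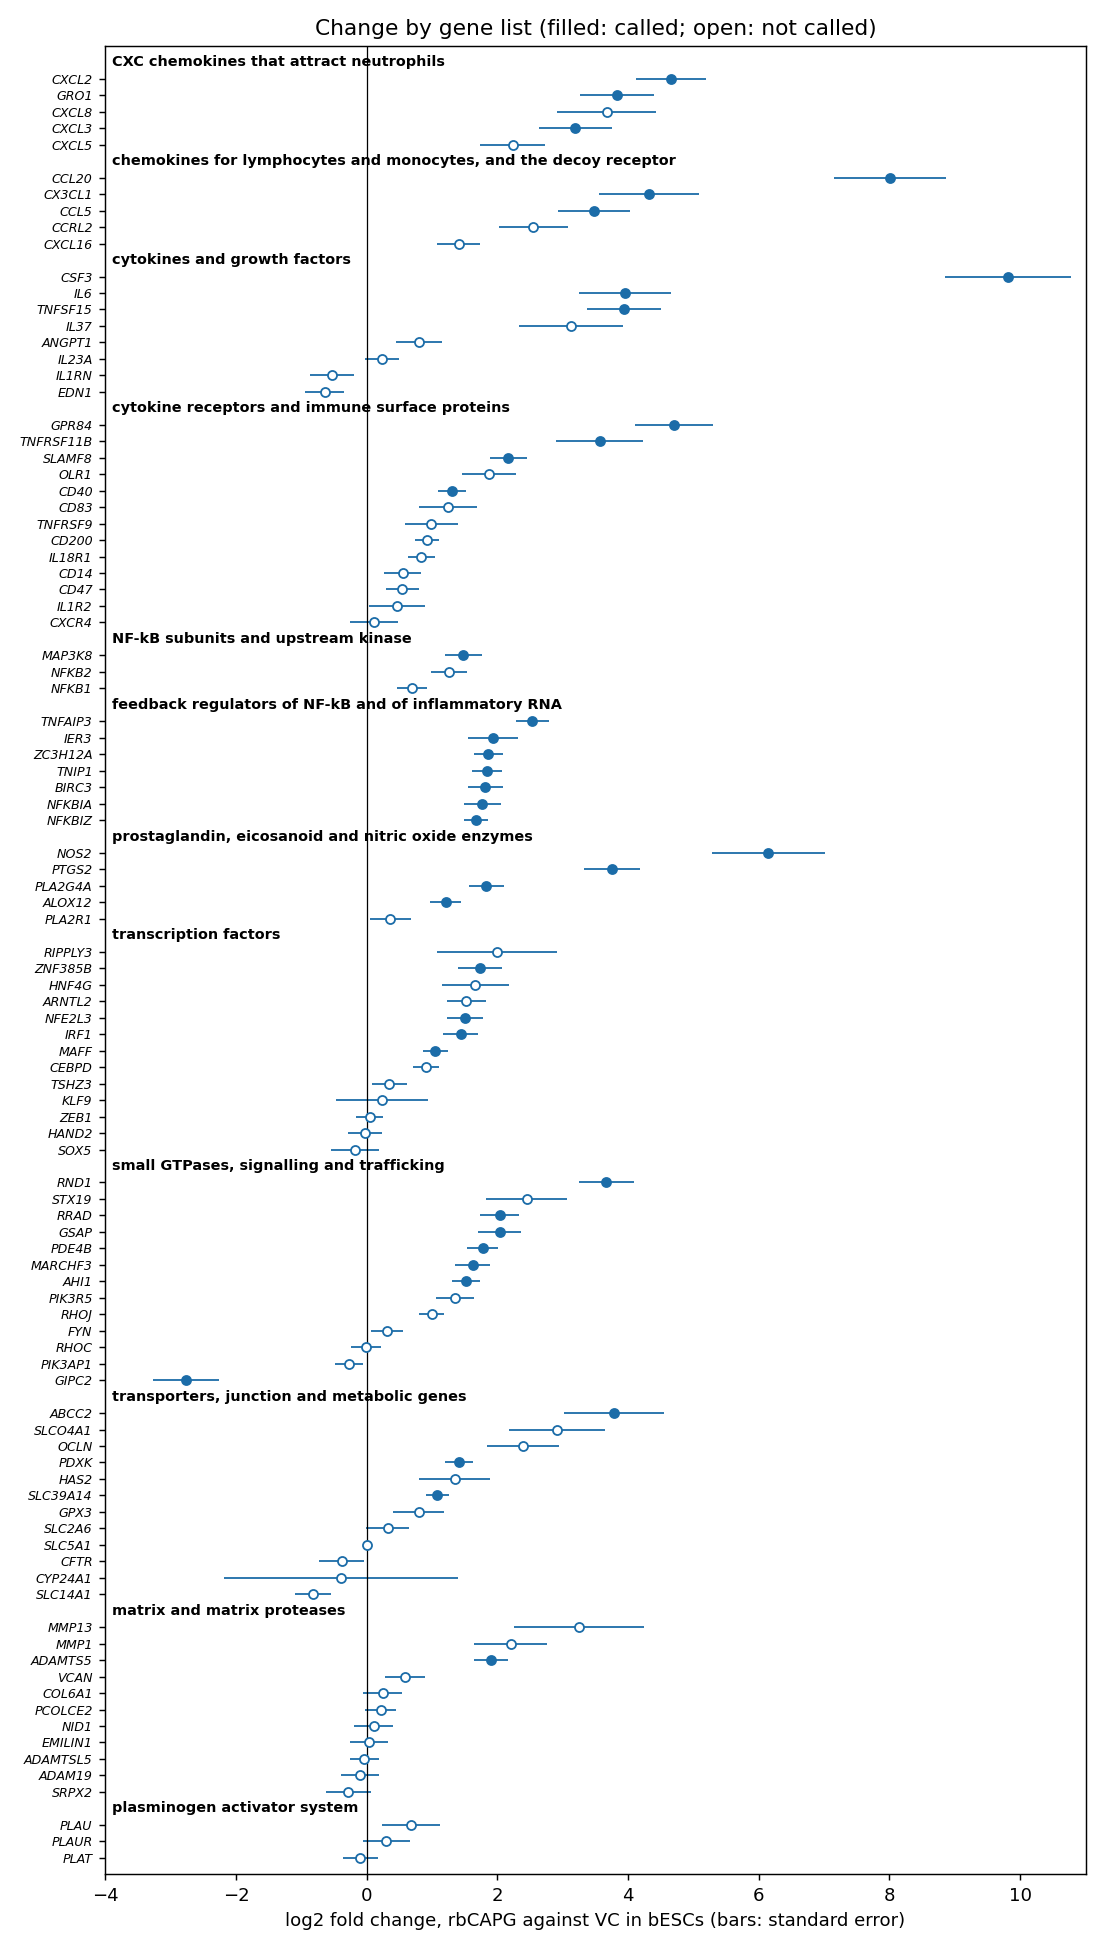
Log2 fold change with rbCAPG against VC in bESCs for the members of 12 gene lists, with the standard error as a bar. Filled points were called and open points were not, and the feedback regulators of NF-kB are the list with all members filled.

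Of 13 transcription factors, 4 were called higher, with a median log2 fold change of 1.05 over the list. IRF1, which carries interferon and NF-kB signals to its targets, was at 49.4, 64.2 and 29.01 CPM with VC and 106, 111 and 167 CPM with rbCAPG, a log2 fold change of 1.44 ± 0.27 (SE) with an edgeR adjusted p of 0.0273. MAFF, a small Maf protein, had a log2 fold change of 1.05, NFE2L3, a partner of small Maf proteins, 1.50, and the zinc finger gene ZNF385B 1.74. The stromal factors HAND2, needed for decidualisation and implantation, and ZEB1, a mesenchymal factor, had log2 fold changes of -0.02 and 0.04.

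Of 13 genes of small GTPases, signalling and trafficking, 6 were called higher and 1 lower. RND1, which loosens actin and cell adhesion, was at 11.9, 9.10 and 9.64 CPM with VC and 99.9, 78.9 and 271 CPM with rbCAPG. Its VC levels were nearly the same in the 3 animals, and the rise was largest in animal 3. The log2 fold change of RND1 was 3.67 ± 0.42 (SE), with an edgeR adjusted p of 0.00129. PDE4B, which degrades cyclic AMP, went from 17.4, 30.2 and 20.03 CPM to 38.8, 146 and 72.9 CPM, a log2 fold change of 1.77 ± 0.24 (SE) with an edgeR adjusted p of 0.00381. RRAD, a GTPase of the RGK family, had a log2 fold change of 2.03 ± 0.30 (SE) with an edgeR adjusted p of 0.00647, and AHI1, a protein of the primary cilium, one of 1.52 ± 0.21 (SE) with an edgeR adjusted p of 0.00491. The ubiquitin ligase gene MARCHF3 and GSAP were also called, with log2 fold changes of 1.62 and 2.03. RHOJ, a GTPase of endothelium and mesenchyme, passed the adjusted p by edgeR at 0.0350 but its log2 fold change of 0.99 was just under the limit.

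The only lower gene with a symbol was GIPC2, a scaffold protein with a PDZ domain, at 0.661, 0.248 and 0.236 CPM with VC and 0.164, 0.0186 and 0 CPM with rbCAPG. Its log2 fold change was -2.77 ± 0.50 (SE) with an edgeR adjusted p of 0.0251, at levels under 1 CPM throughout. The other lower gene, ENSBTAG00000017564, was at 3.70, 1.28 and 4.80 CPM with VC and 1.59, 0.649 and 1.48 CPM with rbCAPG, a log2 fold change of -1.33 ± 0.21 (SE) with an edgeR adjusted p of 0.0106. Both were lower with rbCAPG in each of the 3 animals, as were 9.81% of all tested genes. The groups did not overlap for GIPC2, as they did not in this direction for 2.10% of all tested genes, and they overlapped for ENSBTAG00000017564. The share of all tested genes called lower was 0.0112%. RBM47, an RNA-binding protein of epithelia, and SCIN, an actin-severing protein of the family of CAPG, are also in the study's bESC list and were not called, with log2 fold changes of -2.67 and -3.53 and edgeR adjusted p-values of 0.0600 and 0.0911.

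Transporters, junction and metabolic genes gave 3 calls among 12, all higher. These were ABCC2, an export pump for organic anions, with a log2 fold change of 3.78, the zinc importer SLC39A14 with 1.08, and PDXK, the kinase that activates vitamin B6, with 1.41. The junction protein OCLN was at 0.308, 0.227 and 0.257 CPM with VC and 2.05, 1.04 and 0.992 CPM with rbCAPG and was not called, with an edgeR adjusted p of 0.0962. Of 11 matrix genes and matrix proteases, ADAMTS5 alone was called. ADAMTS5, which cleaves aggrecan and versican, was at 5.86, 26.2 and 11.6 CPM with VC and 28.8, 106 and 29.9 CPM with rbCAPG, a log2 fold change of 1.90 ± 0.26 (SE) with an edgeR adjusted p of 0.00478. The collagenase gene MMP1 was at 3.92, 49.97 and 10.6 CPM and 49.5, 102 and 75.2 CPM, and its edgeR adjusted p was 0.162. The structural genes COL6A1, VCAN, NID1 and EMILIN1 had log2 fold changes of 0.25, 0.59, 0.11 and 0.04, and none was called. The plasminogen activator genes PLAU and PLAT and the receptor gene PLAUR had log2 fold changes of 0.68, -0.10 and 0.30. None of these 3 was called by edgeR or by DESeq2, and none had an unadjusted p under 0.05.

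Called genes with a symbol outside these lists were VEPH1, which encodes a protein with a pleckstrin homology domain, GPRIN2 and RNF125, a ubiquitin ligase that limits antiviral signalling. VEPH1 was at 0.220, 0.330 and 0.300 CPM with VC and 1.09, 4.19 and 1.48 CPM with rbCAPG, a log2 fold change of 2.86 ± 0.37 (SE) with an edgeR adjusted p of 0.00339. GPRIN2 and RNF125 had log2 fold changes of 2.19 and 1.20, with groups that overlapped. Of the 84 higher genes, 23 had a VC mean under 1 CPM, 25 one from 1 to 10 CPM and 36 one of 10 CPM or more.

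The 3 animals were compared over the 84 higher genes. Within-animal log2 differences had a median of 1.86 in animal 1, 1.98 in animal 2 and 2.09 in animal 3, and exceeded 1 for 77, 78 and 76 genes. Since a positive difference in each animal helps a gene to be called, these are a description. The summed level of the 84 genes went from 1986 to 8528 CPM in animal 1, from 4170.5 to 15976 CPM in animal 2 and from 1560.4 to 11386 CPM in animal 3. Animal 2 had the highest VC level for 57 of the 84 and the highest rbCAPG level for 61, whereas the largest ratio was in animal 3 for 45. The spread over all tested genes also differed, with 4.95%, 5.59% and 10.9% of them above a log2 difference of 1 in animals 1, 2 and 3. Leaving out single libraries moved the count of calls to 45 without VC of animal 1, 51 without VC of animal 3, 43 without rbCAPG of animal 1 and 53 without rbCAPG of animal 2, and leaving out animal 1 moved it to 34.

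**Figure D3:**
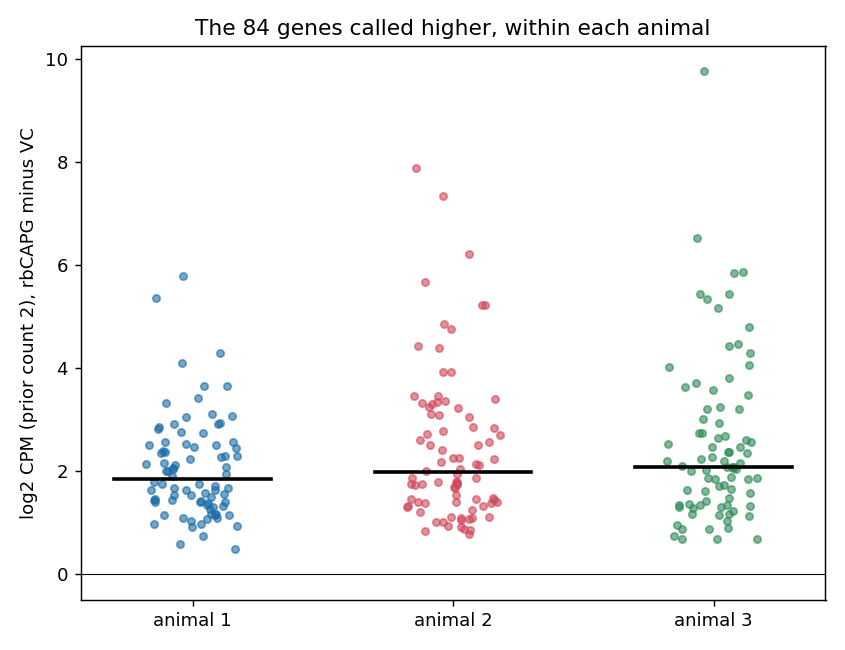
Log2 difference in CPM between rbCAPG and VC within each of the 3 animals, for the 84 genes called higher. Each point is a gene and the line is the median, which lies at 1.86, 1.98 and 2.09, with all points above 0.

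In the bEECs of the same devices, 365 genes were called higher with rbCAPG (2.04% of all tested genes). Of the 84 higher genes in bESCs, 38 were among them, 45.2% of the bESC genes and 10.4% of the bEEC genes. A positive log2 fold change in bEECs was found for 72 of the 84. The calls in bEECs were mostly higher, with 365 beside 27 lower. The count of 72 has no share over all tested genes beside it and is a description only. Whether a response differed between the cell types was tested by the interaction term, which called 40 genes (0.223% of all tested genes), 6 with a larger log2 fold change in bESCs and 34 with a larger one in bEECs. Among genes called in bESCs, 9 had a called difference. Of the 46 genes that rose in bESCs and were not called in bEECs, the difference was called for 5. These were TNFSF15, VEPH1, ENSBTAG00000016906, ENSBTAG00000050417 and ENSBTAG00000017529. The other 4 were CXCL2, CXCL3 and ENSBTAG00000049589, which rose more in bEECs, and ENSBTAG00000017564, which was lower in bESCs with a log2 fold change of 0.32 in bEECs. The identifiers were named after their values were seen. The count of called differences fell to 14 without VC bEECs of animal 1, 11 without those of animal 3, 22, 24 and 12 without rbCAPG bEECs of animals 1, 2 and 3, and 18 without rbCAPG bESCs of animal 1. Without animal 1 altogether it was 0 by edgeR, with 890 genes at an unadjusted p under 0.05, and it was 4 without animal 2 and 10 without animal 3.

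TNFSF15 was at 229 ± 109 CPM (SD, n = 3) in VC bEECs and 211 ± 46.99 CPM with rbCAPG, a log2 fold change of -0.04 that was not called, beside the rise in bESCs from 5.93 ± 1.66 CPM to 93.3 ± 55.6 CPM. The log2 fold changes differed by 3.98 ± 0.73 (SE) between bESCs and bEECs, with an edgeR adjusted p of 0.0445. The mean level in bESCs with rbCAPG thus stayed under the mean level in VC bEECs. For VEPH1 the difference was 3.64 ± 0.48 (SE), with an edgeR adjusted p of 0.00445, and its bEEC level was 5.37 ± 2.17 CPM with VC and 3.24 ± 1.59 CPM with rbCAPG.

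CXCL2, CXCL3 and CXCL5 had larger log2 fold changes in bEECs, while the differences for GRO1 and CXCL8 were not called. CXCL2 was at 0.774 ± 0.273 CPM in VC bEECs and 537 ± 353 CPM with rbCAPG, a log2 fold change of 9.17 ± 0.67 (SE), which exceeded that in bESCs with a difference of -4.51 ± 0.72 (SE) and an edgeR adjusted p of 0.0208. CXCL5 was at 19.6 ± 4.99 CPM in VC bEECs and 6283 ± 3371 CPM with rbCAPG, and the difference was -5.91 ± 0.72 (SE) with an edgeR adjusted p of 0.00346. In VC the bESCs held far more CXCL2 and CXCL5 RNA than the bEECs did, and the smaller fold in bESCs started from a higher level. CXCL3 had a difference of -4.83, with an edgeR adjusted p of 0.0212. The feedback regulators NFKBIA, TNFAIP3 and NFKBIZ had log2 fold changes of 3.32, 2.28 and 2.18 in bEECs, and none of the differences was called.

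**Figure D4:**
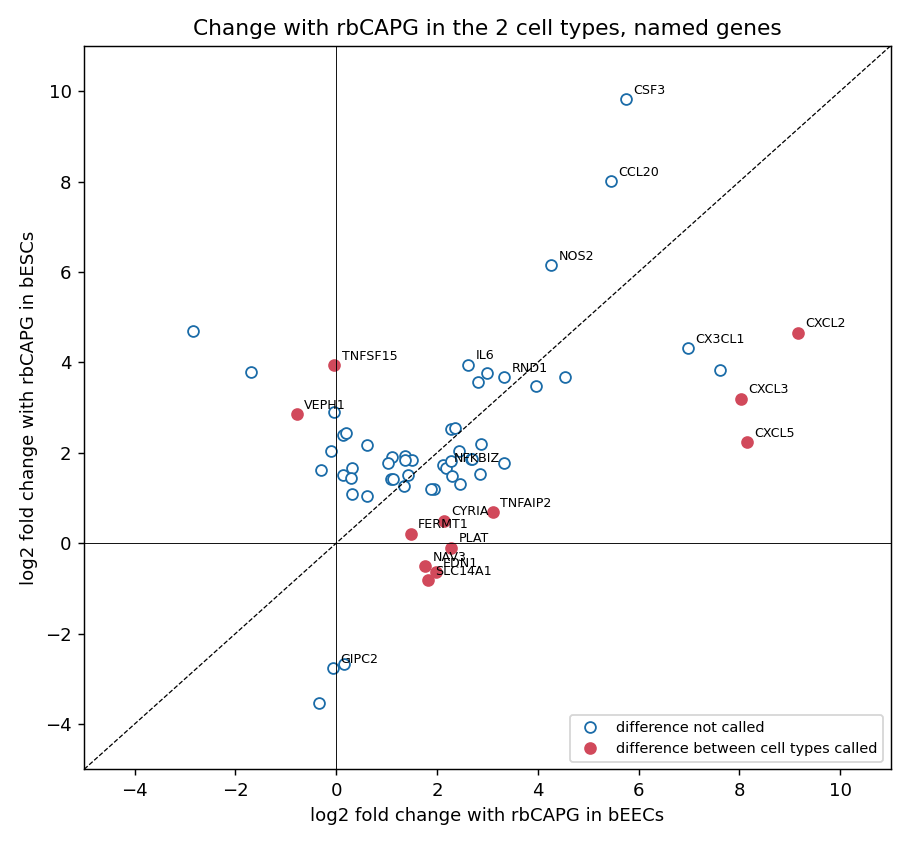
Log2 fold change with rbCAPG in bEECs (horizontal) and bESCs (vertical) for named genes, with equal change along the dashed line. Filled points mark genes whose difference between cell types was called, such as TNFSF15 and VEPH1 above the line and CXCL2, CXCL3 and CXCL5 under it.

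Genes that the study listed for rbCAPG in bEECs and not in bESCs were followed in the bESC libraries. Their absence from the study's bESC list was set on these same bESC libraries, so the members are not an unselected set and their counts are a description. Of 179 such genes, all tested, 5 were called higher in bESCs (2.79%, beside 0.480% of all tested genes) and none lower. The calls were GPRIN2, RNF125, NFE2L3, ALOX12 and ENSBTAG00000006523. Of the 179, 119 had a positive log2 fold change in bESCs, beside 46.7% of all tested genes, and the median was 0.22. At an unadjusted p under 0.05 in the edgeR fit, 44 were higher and 3 lower, beside 5.59% of all tested genes in either direction. ENSBTAG00000006523 was at 82.4, 639 and 40.3 CPM with VC and 421, 2882 and 527 CPM with rbCAPG, a log2 fold change of 2.57 ± 0.46 (SE) with an edgeR adjusted p of 0.0231. The count of 5 became 0 in the edgeR fit without the block (36 at an unadjusted p under 0.05), 0 without animal 1 (38 unadjusted) and 13 by DESeq2 with the block. Without a single library it was 1 for VC of animal 1, 3 for VC of animal 3, and 0 (41 unadjusted), 1 and 10 for rbCAPG of animals 1, 2 and 3. RNA of the 101 genes marking bEECs was higher with rbCAPG in each animal as well, by the values given above, and its part in this list was not tested.

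The proteins rbCAPG and rbPDI were compared directly in bESCs, at the same concentration and time. rbPDI, protein disulphide isomerase, is an enzyme that forms and rearranges disulphide bonds and is unrelated to CAPG. edgeR called 0 of 17931 genes between the proteins, with 706 (3.94%) at an unadjusted p under 0.05, and DESeq2 with the block called 13. Against the VC libraries that both comparisons share, rbPDI gave 177 higher genes (0.987%) where rbCAPG gave 84. All 84 also had a positive log2 fold change with rbPDI, and 77 of them were called higher. The shared VC libraries raise this overlap, so it is a description. Of these 84, 65 were higher with rbPDI than with rbCAPG and 19 lower, and the median log2 difference was 0.18, beside 0.01 for all tested genes. The 84 genes were called on the same rbCAPG libraries, so their differences from rbPDI are a description. A p that misses the threshold does not show equal effects, so the 95% intervals of the differences were read. They lay within -1 and 1 for 44 of the 84, reached 1 or more for 30 and reached -1 or less for 12, with 2 genes in both of these counts.

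CXCL2 was at 1175, 1173 and 1263 CPM with rbPDI in animals 1, 2 and 3, and its log2 difference from rbCAPG was 0.32 (95% interval -0.66 to 1.3). The rbPDI libraries of CXCL2 thus reached slightly over those with rbCAPG. For CCL20 the rbPDI levels were 34.4, 212 and 178 CPM and the difference was 1.08 (95% interval -0.17 to 2.34). For PTGS2 it was 0.00 (95% interval -0.82 to 0.83) and for TNFAIP3 0.03 (95% interval -0.48 to 0.53). The difference for IL6 was 0.42 (95% interval -0.90 to 1.73), an interval that leaves a change of more than 1 log2 unit possible. At an unadjusted p under 0.05, 10 of the 86 genes differed between the proteins, 5 of them with a symbol. PDXK, AHI1, NFE2L3 and VEPH1 were higher with rbPDI by 0.57, 0.48, 0.67 and 0.76 on the log2 scale, and GIPC2, lower with rbCAPG, was higher with rbPDI than with rbCAPG by 1.53. None of these passed the adjustment in edgeR. All 86 genes were called on the same rbCAPG libraries, so these differences are a description. For GIPC2, called lower with rbCAPG at very low levels, that choice by itself favours a higher value with rbPDI. The rbPDI library of animal 1 was the shallowest of the series, at 10072851 estimated counts.

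**Figure D5:**
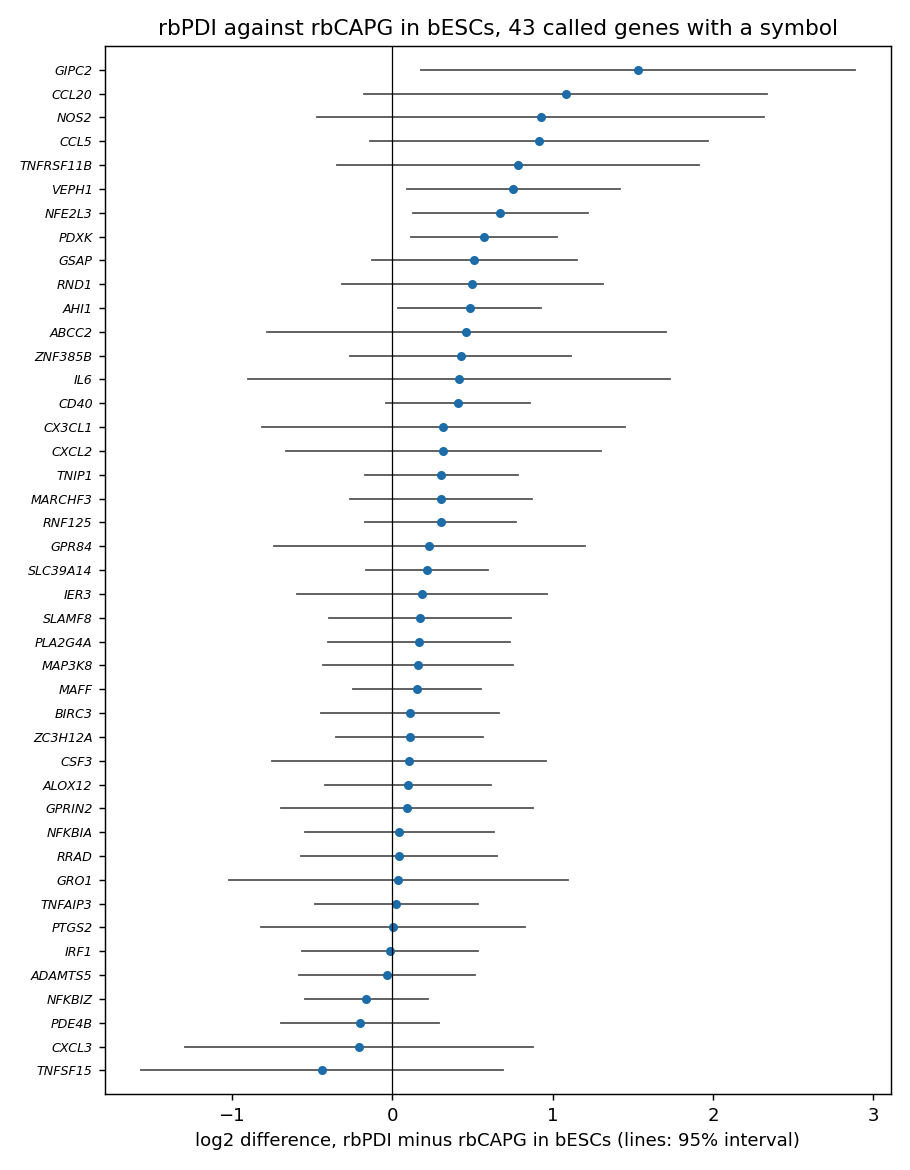
Log2 difference between rbPDI and rbCAPG in bESCs for the 43 called genes with a symbol. Points are estimates and lines are 95% intervals, most of which cross 0, and GIPC2, at 1.53, has the largest estimate. The genes were called on the same rbCAPG libraries.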

How the data were processed

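RNA was measured by sequencing of SMART-Seq cDNA libraries from 18 samples, with 3 samples in each of 6 groups. Trimmomatic (trimming), STAR (alignment to ARS-UCD1.3) and featureCounts (Ensembl release 113 genes) were used by the authors. What they deposited are estimated counts without normalization, in which a read that fits several places or genes counts as a fraction in each. Tool versions and a strand option are not given in the sources used here, so reads of genes on opposite strands cannot be separated. The gene table held 36075 genes, and 23.3% of its values were not whole.

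Rounded values were analysed with edgeR 4.0.16 in R 4.3.3 (TMM factors, filterByExpr over the 6 groups, 17931 genes). The quasi-likelihood fit used all 18 samples, with a mean per group and a block for each animal within a cell type (residual degrees of freedom 8, prior 5.70, biological coefficient of variation 0.244). The pairing is inferred from the replicate numbers and the methods. These name 3 tracts, 1 animal per device and paired tests of the protein data. The deviations of VC and rbCAPG bESC samples from their group means correlated at 0.668, 0.271 and 0.129 in animals 1, 2 and 3. Standard errors were taken from the size of the log2 fold change over the root of F. CPM values use the TMM factors, and within-animal log2 differences use a prior count of 2. The floor of 3 counts and the counting interval cover counting error only. A two-sided exact permutation test of 3 against 3 samples cannot give a p under 0.1, so it was not used.

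The alternatives were DESeq2 1.42.0 (Wald test, local fit), its size factors, other filters, fits to 9 or 6 samples, no block, no fold limit, glmTreat with a limit of 1 on the log2 scale, and each library or animal left out. DESeq2 without the block was added after seeing the data. Both fits were tested on simulated data. With no gene changed there, DESeq2 with the block called 19 of 17726 genes and edgeR called 0, so small DESeq2 counts are not evidence of change. With 200 genes changed there, edgeR called 26% of the 2-fold changes and DESeq2 32%. A 2-fold change lies exactly at the fold limit of a call, so that limit alone removes many of them. Of the 4-fold changes, edgeR called 88% and DESeq2 90%. Genes with low mean counts were left out of the changed set, so the rates do not cover them. Whether these rates hold for a spread estimated from bESC libraries alone was not tested.

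Symbols come from gene lists supplied with the paper, which pair 190 of 245 identifiers with a symbol. Their fold changes and p-values were not used. Genes with a symbol were named if they were in a functional list or in the study's bESC list for rbCAPG, in order of p within a list, with every called gene with a symbol and every lower gene, and at most 2 higher identifiers without a symbol. The identifiers that make up small counts were named beyond this. One gene of the functional lists is not reported here. The comparison and the lists were chosen with earlier results of these data known.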

Additional observations from a re-analysis of the deposited data

Results flagged for a closer look

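Under the same contrast of rbCAPG against VC, 40 genes changed differently in bESCs and bEECs by the interaction term of the edgeR fit, which is what set them apart for a closer look. With a symbol, the log2 fold change was larger in bESCs by 3.64 for VEPH1 and by 3.98 for TNFSF15. The difference, bESC minus bEEC, was -5.91 for CXCL5, -4.83 for CXCL3 and -4.51 for CXCL2. It was -2.63 for the urea transporter SLC14A1, -2.62 for EDN1 and -2.42 for TNFAIP2, a gene induced by TNF. PLAT, the tissue plasminogen activator, had a difference of -2.38 and NAV3 one of -2.27. The smallest were -1.65 for CYRIA, a regulator of actin, and -1.27 for FERMT1, an integrin adaptor of epithelia. SLC14A1, EDN1, TNFAIP2, PLAT, NAV3, CYRIA and FERMT1 were called higher in bEECs and not called in bESCs, where their log2 fold changes were -0.82, -0.64, 0.69, -0.10, -0.50, 0.49 and 0.21. Without animal 1 no difference was called, with 4 called without animal 2 and 10 without animal 3. Groups of 3 are too small for a check of single outlying samples.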

How the results depend on the processing

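In the fit without the replicate block, rbCAPG against VC gave 17 calls in bESCs instead of 86, the difference between cell types 12 instead of 40 and the bEEC list 0 instead of 5 (36 at an unadjusted p under 0.05). Most edgeR calls thus depended on the pairing. DESeq2 with the block gave 188, 271 and 13 calls for these, and 13 between rbPDI and rbCAPG. With no filter on low counts (29859 genes) edgeR gave 173, 104, 13 and 28, and the cause was not tested. The fit to 9 bESC samples gave 19 calls and 0 in the bEEC list (40 unadjusted), and that to 6 samples gave 0 (511 unadjusted) and 0 (31 unadjusted), with fewer samples behind the spread. Tested against a log2 fold change of 1, the counts were 14 for rbCAPG against VC, 8 for the difference and 0 in the bEEC list (14 unadjusted). DESeq2 without the block gave 71 calls for rbCAPG against VC, 52 of them among the 86. It gave 49 for the difference and 2 in the bEEC list.

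With 1 library left out, the counts were 43 to 104 for rbCAPG against VC, 11 to 40 for the difference, 0 to 1 between the proteins and 0 to 10 in the bEEC list, where a lone sample is assumed to vary like the other groups. With 1 animal left out, they were 34 to 81, 0 to 10, 0 to 5 and 0 to 6. The 0 for the difference came without animal 1 (890 unadjusted). Over 56 named genes and 1004 alternative values, 0 changed direction, 268 lost the call, 53 gained it and 683 kept their side of the threshold. The 56 genes were called here or listed by the study from these same libraries, so a change of direction was unlikely beforehand. Without the block, 15 of the 43 called genes with a symbol were called. CCL20, CXCL2, PTGS2, RND1 and TNFAIP3 were called in 17 of 18 alternatives each, all but the fit to 6 samples.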
